A study of Homo sapiens with 6 samples.

Results

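The forkhead box genes examined here are 40 named FOX genes among 19970 protein-coding genes on chromosomes 1 to 22 and X. A member was scored from every peak and differential region that overlapped its RefSeq span on GRCh38 extended by 2 kb on each side. The study mapped 2 histone marks by ChIP-seq in D283, a cell line of Group 3 medulloblastoma, a childhood tumour of the cerebellum. The cells grew in suspension as tumorspheres in Neural Precursor medium. All cells had received 30 nM siRNA. It targeted OTX2, the homeobox factor that characterizes this tumour group, in the group called OTX2low, and was a non-silencing scramble sequence in the group called OTX2high. H3K4me3 and H3K27me3 were each profiled in 1 library per group, so no difference between groups has a replicate check and no p-value between conditions is given.

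Forkhead proteins bind DNA through a winged-helix domain. Several members, such as the FOXA factors, open chromatin for other regulators. Others are controlled by signalling, as the FOXO factors are by insulin and AKT, or by the cell cycle, as FOXM1 is. H3K4me3 marks active and poised promoters, H3K27me3 is laid down by Polycomb complexes, and developmental regulators often carry both marks in stem and progenitor cells.

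The libraries held 20914582 tags for H3K4me3 in OTX2low and 33137731 in OTX2high, and 33885628 and 40271458 tags for the H3K27me3 lists labelled OTX2low and OTX2high. The file header of each H3K27me3 list names the opposite condition to its sample label. The IgG control of the list labelled OTX2low held 85840108 tags, as did that of H3K4me3 in OTX2high. The IgG control of the list labelled OTX2high held 55079542 tags, as did that of H3K4me3 in OTX2low. Which name is right was not tested. The H3K27me3 lists are therefore called by their label, and no direction is taken from them. Fragment lengths estimated for them were 78 bp in the list labelled OTX2low and 169 bp in the list labelled OTX2high, and the median width of peaks at forkhead genes was 152 bp against 612 bp. Of the markers of Group 3 medulloblastoma, 6 of 6 had an H3K4me3 peak in both lists and 0 had an H3K27me3 peak. H3K4me3 peaks were found at 1 of 7 immune, blood and endothelial markers in OTX2low and 2 of 7 in OTX2high, and at 4 of 6 mesenchymal, muscle and epithelial markers and 1 of 4 glial markers in each list. At OTX2 itself the called H3K4me3 region held 1767.53 normalized reads in OTX2low and 3119.10 in OTX2high. In a bulk culture, fewer marked cells and less mark per cell cannot be told apart.

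Most forkhead genes carried H3K4me3, and 17 of the 40 carried both marks. An H3K4me3 peak was present at 32 of 40 members in OTX2low and at 33 of 40 in OTX2high, where 73.7% and 75% of all genes had one. H3K27me3 was present at 17 of 40 members in the list labelled OTX2low and at 22 of 40 in the list labelled OTX2high, where 17.7% and 25.8% of all genes had a peak. At a -log10 q of at least 10 the members with H3K27me3 were 2 in the list labelled OTX2low and 13 in the list labelled OTX2high, and those with both marks were 10. An overlap of at least 200 bp left 9 in the list labelled OTX2low. The members with both marks were 42.5% of all members, where 17.5% of all genes carried both. At 16 members an H3K4me3 peak and an H3K27me3 peak overlapped by at least 1 bp, where 11.6% of all genes had such an overlap. These are counts over 1 list per library, with no test.

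The 17 members with both marks were FOXA1, FOXA3, FOXB1, FOXB2, FOXC1, FOXC2, FOXD1, FOXD2, FOXD3, FOXD4, FOXE3, FOXF1, FOXI2, FOXL2, FOXN4, FOXP2 and FOXQ1. Among them are FOXD3, a factor of the neural crest, FOXE3 of the lens and FOXL2 of the ovary. H3K27me3 was scant at some. At FOXP2 it covered 86 bp in the list labelled OTX2low and 277 bp in the list labelled OTX2high, under 0.05% of the gene and its flanks. FOXD1, FOXA1 and FOXQ1 had it in the list labelled OTX2high only, with 410, 489 and 737 bp. At FOXD1 the peaks of the 2 marks did not overlap. Of the 17, H3K4me3 was in both lists at 16 and H3K27me3 was in both lists at 12. H3K4me3 without H3K27me3 was found at 16 members, or 40% of them, and at 58.3% of all genes. These were FOXE1, FOXF2, FOXH1, FOXJ1, FOXJ2, FOXJ3, FOXK1, FOXK2, FOXM1, FOXN2, FOXN3, FOXO1, FOXO3, FOXO4, FOXP1 and FOXP4. They include the 3 FOXO genes among the members and the cell-cycle regulator FOXM1. H3K27me3 alone was found at 5 members, FOXA2, FOXI1, FOXL1, FOXN1 and FOXS1, which is 12.5% of them and 9.26% of all genes. FOXP3, which defines regulatory T cells, and FOXR1 had neither mark, as had 15% of all genes.

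**Figure D1:**
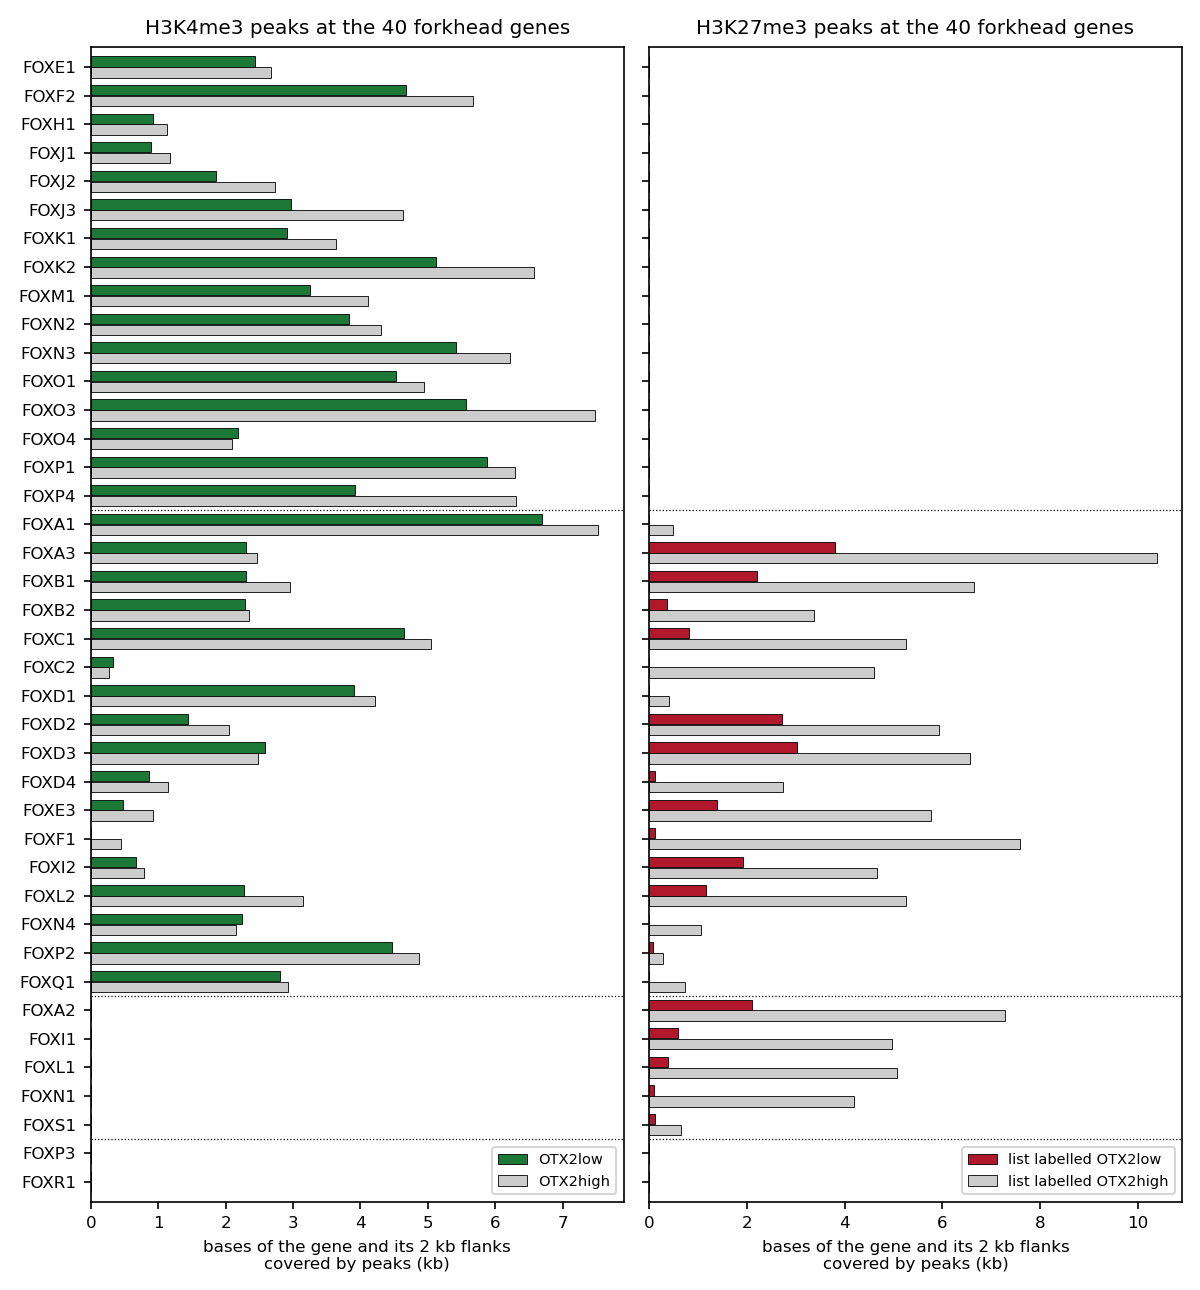
Bases of each of the 40 forkhead genes, with 2 kb flanks, that are covered by H3K4me3 peaks (left) and H3K27me3 peaks (right), in kb, with OTX2low above OTX2high for each gene. Dotted lines separate, from the top, 16 genes with H3K4me3 alone, 17 with both marks, 5 with H3K27me3 alone and 2 with neither; every H3K27me3 bar is shorter in the list labelled OTX2low than in the list labelled OTX2high.

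Gene spans differed between the states. The median span was 2914 bp for the members with both marks, 60820.5 bp for those with H3K4me3 alone and 4493 bp for those with H3K27me3 alone.

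Promoter sequence is shown for 6 members that represent these states and carry results described further on. RefSeq windows on GRCh38.p14, from 250 bases before to 50 bases after an annotated start, were at hand for 30 of the 40 members. At FOXP2 that start is not the start of the span. Its window (chr7:114414565-114414864) lies far inside the gene, whose span starts at 114086327. The FOXP1 window also lies wholly inside its span. They are written 5′ to 3′ in lower case, with each CG dinucleotide in capitals. FOXD3 (chr1:63322317-63322616, plus strand) and FOXB1 (chr15:60004061-60004360, plus strand), a factor of the developing hypothalamus and midbrain, had both marks on the window itself in all 4 lists. FOXP4 (chr6:41546131-41546430, plus strand) and FOXK2 (chr17:82519482-82519781, plus strand), a repressor linked to metabolism, had H3K4me3 alone. FOXI1 (chr5:170105647-170105946, plus strand), a factor of the inner ear and of ion-transporting cells in the kidney, had H3K27me3 alone, on the window in the list labelled OTX2high, and FOXP3 (chrX:49264661-49264960, minus strand) had neither mark.
FOXD3: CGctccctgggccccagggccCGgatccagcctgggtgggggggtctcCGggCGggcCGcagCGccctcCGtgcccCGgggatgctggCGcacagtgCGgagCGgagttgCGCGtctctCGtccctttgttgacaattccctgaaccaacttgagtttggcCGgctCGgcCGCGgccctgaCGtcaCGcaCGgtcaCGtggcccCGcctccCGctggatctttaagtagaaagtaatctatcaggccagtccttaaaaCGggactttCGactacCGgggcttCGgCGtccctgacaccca
FOXB1: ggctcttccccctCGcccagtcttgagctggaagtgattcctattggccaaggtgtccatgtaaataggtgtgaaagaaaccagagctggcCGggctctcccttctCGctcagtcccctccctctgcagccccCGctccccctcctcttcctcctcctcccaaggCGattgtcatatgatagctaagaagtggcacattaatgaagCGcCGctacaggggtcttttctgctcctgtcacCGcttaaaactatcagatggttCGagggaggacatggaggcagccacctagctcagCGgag
FOXP4: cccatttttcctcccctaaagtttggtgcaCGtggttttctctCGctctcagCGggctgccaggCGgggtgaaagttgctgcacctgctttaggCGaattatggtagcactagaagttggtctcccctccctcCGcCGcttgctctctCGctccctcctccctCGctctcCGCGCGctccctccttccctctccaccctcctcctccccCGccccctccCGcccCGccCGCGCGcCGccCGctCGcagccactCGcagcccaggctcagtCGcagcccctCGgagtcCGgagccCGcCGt
FOXK2: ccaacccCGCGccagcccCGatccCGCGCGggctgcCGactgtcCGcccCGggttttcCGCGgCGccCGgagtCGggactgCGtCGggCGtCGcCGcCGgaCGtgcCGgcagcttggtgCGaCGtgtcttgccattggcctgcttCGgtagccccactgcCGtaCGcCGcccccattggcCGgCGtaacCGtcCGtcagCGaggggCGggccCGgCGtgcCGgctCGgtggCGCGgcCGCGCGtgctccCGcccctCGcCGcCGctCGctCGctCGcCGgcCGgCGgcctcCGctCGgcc
FOXI1: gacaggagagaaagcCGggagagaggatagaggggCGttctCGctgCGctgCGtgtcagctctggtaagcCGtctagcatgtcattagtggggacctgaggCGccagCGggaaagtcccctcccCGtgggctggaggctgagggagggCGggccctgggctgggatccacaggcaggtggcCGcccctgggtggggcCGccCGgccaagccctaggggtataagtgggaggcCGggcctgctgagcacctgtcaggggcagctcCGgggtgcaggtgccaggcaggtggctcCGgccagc
FOXP3: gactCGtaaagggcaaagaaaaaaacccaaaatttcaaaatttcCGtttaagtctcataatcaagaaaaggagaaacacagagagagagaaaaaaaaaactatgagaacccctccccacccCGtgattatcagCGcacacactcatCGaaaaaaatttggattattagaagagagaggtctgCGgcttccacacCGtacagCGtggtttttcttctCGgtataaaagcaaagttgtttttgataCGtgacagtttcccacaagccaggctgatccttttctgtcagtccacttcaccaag

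The windows differed widely in CG content. FOXK2 held 55 CG dinucleotides, FOXD3 29, FOXP4 27, FOXI1 16, and FOXB1 and FOXP3 10 each. The 12 members with H3K4me3 alone and a window had a median of 37 CG dinucleotides, the 14 with both marks 26, the 2 with H3K27me3 alone 14 and the 2 with neither 16. The median was 27.5 over the 30 members and 22 over 15811 genes with a window. The states overlapped in CG content. FOXJ3 had 8 CG dinucleotides and H3K4me3 alone, and FOXB1 with 10 carried both marks. FOXP2, counted among those with both marks, had 1, in a window inside the gene. That window held H3K4me3 in OTX2high only, while the start of the FOXP2 span had an H3K4me3 peak in both lists. On the window itself H3K4me3 was present in both lists at 24 of the 30 members, and H3K27me3 in both lists at 4 and in either list at 8. At the other members with both marks and a window, H3K27me3 lay outside the 300 bases. FOXC2, FOXE3 and FOXF1 had both marks but no window, so their promoters were not scored.

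**Figure D2:**
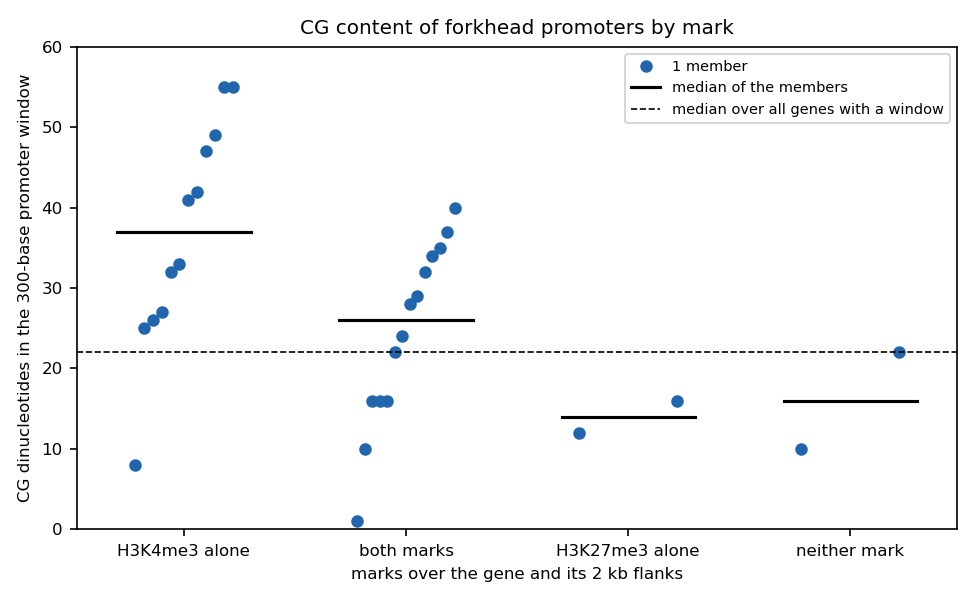
Number of CG dinucleotides in the 300-base promoter window of each of 30 forkhead genes (points), grouped by the marks over the gene, with the median of each group (bars) and the median of 22 over all genes with a window (dashed line). The median was 37 for genes with H3K4me3 alone and 26 for genes with both marks, and both groups hold members on either side of 22. The lowest point, 1 at FOXP2, is from a window inside the gene.

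The windows were searched on both strands for TAATCC, the core motif bound by OTX proteins, and for TGTTTAC, a forkhead motif. Neither motif contains the other. TAATCC was found at FOXP3 only, which is 3.33% of the 30 members, where 5.33% of all windows held it. TGTTTAC was found at FOXO4 only, also 3.33%, where 2.68% of all windows held it.

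The highest H3K4me3 fold enrichment over local background, as the authors' peak caller gave it, was at FOXA3, with 53.7 in OTX2low and 64.2 in OTX2high. That peak ran from an end of the neighbouring gene SYMPK to the start of FOXA3, a factor of liver and endoderm, so its height cannot be given to FOXA3 alone. The same holds for FOXH1, a SMAD partner in Nodal signalling, with 49.1 in OTX2low and 50.3 in OTX2high, since its peak contained an end of PPP1R16A and lay outside the FOXH1 gene. FOXJ3 had 48.0 in OTX2low and 63.0 in OTX2high, FOXK2 46.1 and 56.6, and FOXN2 42.9 and 52.1. These 5 were the highest in OTX2low, while in OTX2high FOXH1 lay below FOXJ3, FOXK2, FOXN2 and also FOXO3, which had 39.5 in OTX2low and 51.8 in OTX2high. Low H3K4me3 peaks, named after their values were seen, were those of FOXC2, a regulator of lymphatic development, with 4.16 in OTX2low and 5.72 in OTX2high, and of FOXI2 with 5.0 and 5.42. Among members with H3K4me3 alone, FOXJ1, the master regulator of motile cilia, had 14.9 in OTX2low and 28.6 in OTX2high, and FOXE1, a thyroid factor, had 33.7 and 37.7. Among those with both marks, FOXN4, a factor of retinal progenitors, had 28.7 in OTX2low and 36.8 in OTX2high. The peaks of FOXE1, FOXN4, FOXN2 and FOXO3 also contained an end of another annotated gene, PTCSC2 at FOXE1 and MYO1H at FOXN4. FOXF1, a regulator of lung mesenchyme, was the 1 member with an H3K4me3 peak in a single list, at a fold enrichment of 4.22 in OTX2high. Peaks at forkhead genes in that list ran from 3.01 to 64.2. The FOXD4 peak contained an end of LINC01388 and did not reach the gene, and FOXD4 has near-identical copies, so its values are uncertain.

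In the list labelled OTX2high, H3K27me3 covered most bases at FOXA3, followed by FOXF1, FOXA2, FOXB1 and FOXD3, and the order differed in the list labelled OTX2low. Gene lengths differ, and as a share of the gene and its flanks the order changed. In the list labelled OTX2high the share was 100% at FOXD3 and at FOXE3, 93.2% at FOXB1, 85.7% at FOXA2, 85.2% at FOXF1 and 77.1% at FOXA3. FOXA3 had 3796 bp in the list labelled OTX2low and 10383 bp in the list labelled OTX2high. FOXF1 had 128 bp and 7580 bp in the lists labelled OTX2low and OTX2high, and FOXA2, a pioneer factor of endoderm and floor plate, had 2110 bp and 7282 bp. FOXB1 had 2217 bp and 6650 bp, and FOXD3 had 3033 bp and 6562 bp, in the same order of lists. Coverage was shorter in the list labelled OTX2low at each of these 5 members, and the 2 lists differ in estimated fragment length as given above; its part in the difference was not tested. At the 5 members with H3K27me3 alone, among them FOXN1, the regulator of thymic epithelium, the highest fold enrichment of a peak ran from 3.66 at FOXN1 to 6.06 at FOXA2 in the list labelled OTX2low. In the list labelled OTX2high it ran from 3.98 at FOXS1 to 11.1 at FOXA2.

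H3K4me3 was mostly lower in OTX2low where the authors called a difference at a forkhead gene, and FOXD3 stood against this. A called region was found at 14 of 40 members, where 53.7% of all genes had one. All regions were higher in OTX2low at 2 members, against 6% of all genes, all were lower at 9, against 41.7%, and regions of both directions lay at 3, against 5.99%. After recentring on the median ratio over genes these counts were 3 higher, 7 lower and 4 in both directions. The regions described gene by gene are those in a peak with at least 20 normalized reads in either library. They numbered 24 at 13 members, all higher in OTX2low at 1 member (3.63% of all genes), all lower at 10 (42.1%) and in both directions at 2 (2.53%). The other 12 regions held at most 17.55 reads in either library, and at FOXJ2 such a region was the only one.

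By mark state, such a region was found at 4 of the 17 members with both marks, where 43.6% of all genes with both marks had one. These 4 were FOXA3, FOXD1, FOXD3 and FOXP2, and H3K27me3 was scant at FOXD1 and FOXP2, as given above. A region of this kind was found at 9 of the 16 members with H3K4me3 alone, where the share of all such genes was 69.6%. The members called were 23.5% of those with both marks and 56.2% of those with H3K4me3 alone.

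FOXD3, which maintains neural crest and pluripotent progenitors, was the 1 member whose regions of this kind were all higher in OTX2low. Its region at chr1:63322501-63324400, which covers the gene start and overlaps the promoter shown above, held 458.81 normalized reads in OTX2low and 312.71 in OTX2high. The log2 ratio of OTX2low over OTX2high was 0.55, with a 95% counting interval of 0.34 to 0.76. Over the 9638 genes with such a region the median log2 ratio was -0.53, with quartiles of -0.69 and -0.44, so FOXD3 lay 1.09 above it. The fold enrichment of its peak was 28.7 in OTX2low and 26.2 in OTX2high. The ratio of ChIP over IgG reads ran the other way, with 50.95 in OTX2low and 78.24 in OTX2high. FOXD3-AS1 has an end within the same peak, and the 2 genes cannot be told apart here.

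Of the FOXO factors, which carry out the response to low insulin signalling, FOXO3 had 431.23 normalized H3K4me3 reads in OTX2low and 655.73 in OTX2high at its region 1.78 kb inside the gene start. The log2 ratio was -0.60, with a counting interval of -0.79 to -0.42. FOXO4 had regions of both directions. The one over its start held 144.16 reads in OTX2low and 234.53 in OTX2high, with a log2 ratio of -0.70 (-1.03 to -0.39). The one 0.95 kb inside the gene held 82.74 reads in OTX2low and 35.90 in OTX2high, with a log2 ratio of 1.2 (0.64 to 1.78). FOXO4 had 3 separate peaks in OTX2low and 1 peak in OTX2high. FOXO1 had no called region, with fold enrichments of 39.1 in OTX2low and 46.7 in OTX2high.

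FOXM1, the activator of genes of the G2 and M phases, held the most reads, with 833.62 in OTX2low and 1248.44 in OTX2high. Its log2 ratio was -0.58 (-0.72 to -0.45), close to the median over genes. The region is shared with the start of RHNO1, so it does not belong to FOXM1 alone. The FOXK1 region, at a gene related to FOXK2, held 269.52 reads in OTX2low and 450.71 in OTX2high, with a log2 ratio of -0.74 (-0.98 to -0.51). FOXJ3 held 488.89 reads in OTX2low and 766.61 in OTX2high in a region 1.08 kb inside its start, with a log2 ratio of -0.65 (-0.82 to -0.48). The region over the FOXJ3 start held 294.59 and 429.18 reads in OTX2low and OTX2high, with a log2 ratio of -0.54. Its ratio of ChIP over IgG ran the other way, with 41.44 in OTX2low and 34.05 in OTX2high.

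Among the FOXP repressors, FOXP4 had the lowest ratio at a gene start. The region at chr6:41544001-41546700, which covers the promoter shown above, held 362.28 reads in OTX2low and 670.89 in OTX2high, with a log2 ratio of -0.89 (-1.09 to -0.69). That is 0.35 below the median over genes, and FOXP4-AS1 shares the peak. FOXP2, known for its role in speech and language circuits, held 95.27 reads in OTX2low and 157.15 in OTX2high at its start, with a log2 ratio of -0.72 (-1.12 to -0.33). FOXP1 held 85.24 reads in OTX2low and 146.78 in OTX2high in a region 110.6 kb inside the gene, with a log2 ratio of -0.78 (-1.21 to -0.38).

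FOXF2, a regulator of mesenchyme and of brain pericytes, had 2 regions that were both lower in OTX2low. Its peak contained ends of FOXF2-DT and MIR6720 in both lists, so these reads cannot be given to FOXF2 alone. The region at the FOXF2 start held 140.40 reads in OTX2low and 274.42 in OTX2high, with a log2 ratio of -0.97 (-1.29 to -0.66). The one 1.0 kb inside the gene held 461.31 reads in OTX2low and 682.85 in OTX2high, with a log2 ratio of -0.57 (-0.75 to -0.39). FOXD1, a factor of the retina and of kidney stroma, had regions at both ends of its gene, with 273.28 and 253.22 reads in OTX2low and 390.88 and 356.58 in OTX2high. Their log2 ratios of -0.52 and -0.49 were within 0.05 of the median over genes, and recentring on that median turned FOXD1 to 0.02. At FOXA3 the region over the gene start held 46.38 reads in OTX2low and 91.74 in OTX2high, with a log2 ratio of -0.98 (-1.56 to -0.44). The FOXA3 region on the SYMPK side held 572.88 reads in OTX2low and 702.79 in OTX2high, with a log2 ratio of -0.29, which lies 0.24 above the median over genes. Its ratio of ChIP over IgG was 52.56 in OTX2low and 50.80 in OTX2high.

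FOXN3, a repressor linked to cell-cycle checkpoints, carried 3 such regions far inside its gene. They held 154.19, 31.34 and 11.28 reads in OTX2low and 232.14, 6.38 and 49.46 in OTX2high, in the same order of regions. The log2 ratios were -0.59, 2.3 and -2.13, so the middle one was higher in OTX2low and the others lower. The peak at the first of these regions contained an end of FOXN3-AS1 in both lists. Across the 13 members the median log2 ratio of the leading region was -0.60, and 3 of 13 lay above the median of -0.53 over genes. Recentring used the median over the 10724 genes with any called region, which was also -0.53. The members' log2 ratios then ran from -0.36 at FOXP4 to 1.08 at FOXD3, and each of the 13 moved by over 1.5 times or changed sign. Only called regions enter these medians, so values near 0 are missing from both.

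The regions with the lowest ratios lay far inside genes. Of the 24 regions, 16 lay within 2 kb of an end of the gene, and the 14 of these that were lower in OTX2low had log2 ratios from -0.98 to -0.29. The other 8 lay over 20 kb inside the gene. Of them, 5 held under 50 reads in OTX2high, with 3.76 to 16.3 reads in OTX2low and 39.89 to 49.46 in OTX2high, and log2 ratios from -3.41 to -1.60. These 5 were at FOXJ3, FOXP4, FOXO3, FOXK1 and FOXN3. The other inside regions that were lower in OTX2low, at FOXP1 with -0.78 and FOXN3 with -0.59, lay within the range of the gene ends. The lowest, at FOXJ3, held 3.76 reads in OTX2low and 39.89 in OTX2high, with a counting interval of -5.73 to -1.78. A region with few reads passes the authors' call only with a large ratio, so the size of these ratios is in part fixed by the call.

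**Figure D3:**
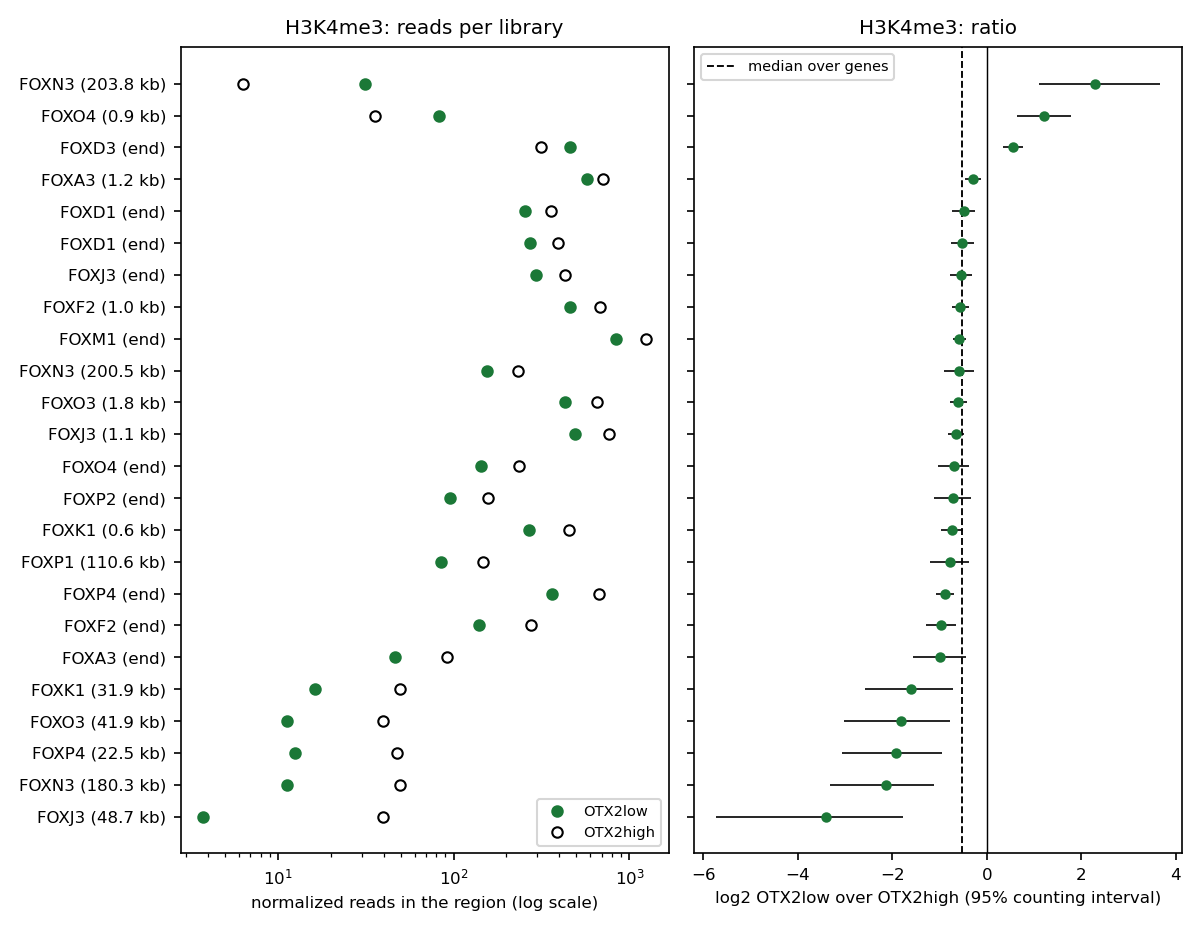
Normalized H3K4me3 reads per library (left, log scale; filled points OTX2low, open points OTX2high) and the log2 ratio of OTX2low over OTX2high with its 95% counting interval (right) for 24 called regions at 13 forkhead genes, each named with its distance from the nearer end of the gene. Of the 24 regions, 21 lie left of 0, and FOXD3, FOXO4 and FOXN3 have a region on the right; the dashed line is the median over genes.

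H3K27me3 was called different at 11 of 40 members in the authors' deposited table, where 10.7% of all genes had a called region. All 11 lay in a peak with at least 20 reads and were higher in OTX2low by the condition names of that table, where 7.24% of all genes had such regions all higher in OTX2low. If the sample labels rather than the names in the table are right, each of these directions is reversed. By header names, the library called OTX2low in this table is the one whose peak list is labelled OTX2high. The same condition name thus stands for opposite libraries in the H3K27me3 peak lists and in this table. Of the members with both marks 10 of 17 had a region, where 31.8% of all such genes did. Of the members with H3K27me3 alone 1 of 5 had one, where 25.1% of all such genes did. The 11 members share 9 regions, because neighbouring genes lie in the same region.

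At FOXD3 the authors' deposited table gave 1360.91 normalized H3K27me3 reads in OTX2low and 1091.90 in OTX2high, with a log2 ratio of 0.32 (95% counting interval 0.20 to 0.44). FOXD3 was the 1 member with a described region of each mark. Both were higher in OTX2low by the names in the tables, and the marks differ in opposite directions if the H3K27me3 libraries are assigned the other way, which gives -0.32 in the authors' deposited table. For FOXB1 the authors' deposited table gave 1633.79 reads in OTX2low and 1294.28 in OTX2high, with a log2 ratio of 0.34. For its paralogue FOXB2 the authors' deposited table gave 733.80 reads in OTX2low and 556.81 in OTX2high, with a log2 ratio of 0.40. At FOXC1, a regulator of the anterior eye, the authors' deposited table gave 687.45 reads in OTX2low and 531.66 in OTX2high, with a log2 ratio of 0.37.

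For FOXL2 the authors' deposited table gave 779.28 reads in OTX2low and 599.12 in OTX2high, with a log2 ratio of 0.38. At FOXD4 the same figures in the authors' deposited table were 784.53 reads in OTX2low and 620.84 in OTX2high, with a log2 ratio of 0.34. Over the 1647 genes with such a region the median log2 ratio in the authors' deposited table was 0.35, and the members' median was 0.37. By its condition names, 8 of 11 members lay above the median over genes, and with the libraries assigned the other way these 8 lie below it. FOXE3 with FOXD2, and FOXC2 with FOXL1, share a region and are counted with the same value. Except at FOXC2 and FOXL1, the counting interval of each member contained the median over genes. Recentring used another median, that of the 2139 genes with any called region, which was 0.33 in the authors' deposited table. It left log2 ratios from -0.01 at FOXD3 to 0.16 at FOXC2 and FOXL1 in the authors' deposited table.

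**Figure D4:**
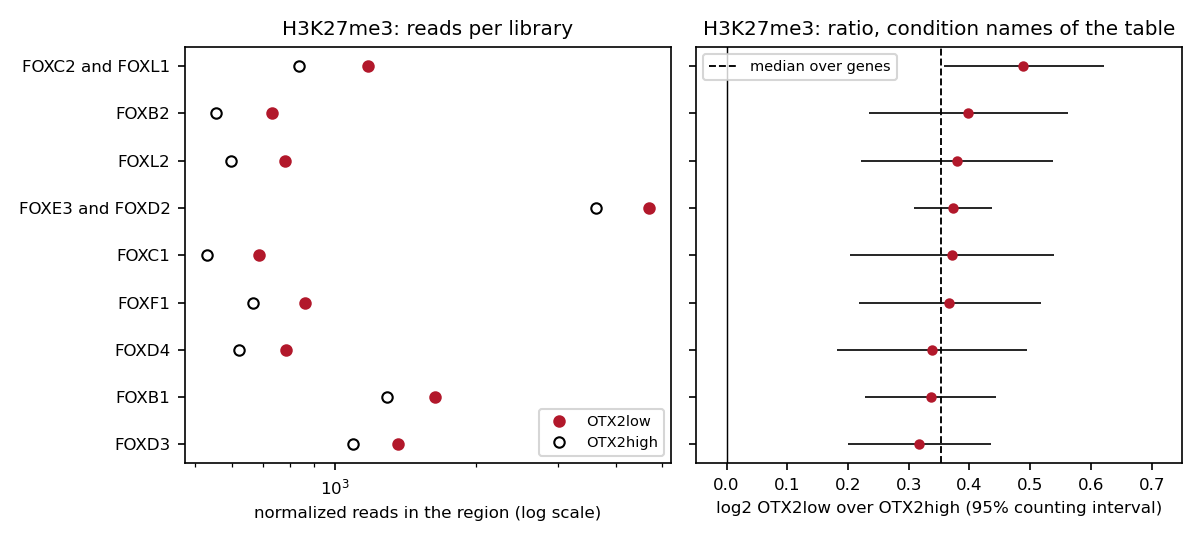
Normalized H3K27me3 reads per library (left, log scale; filled points OTX2low, open points OTX2high) and the log2 ratio of OTX2low over OTX2high with its 95% counting interval (right) for the 9 called regions at 11 forkhead genes, from the authors' deposited table and under its condition names. Ratios run from 0.32 at FOXD3 to 0.49 at FOXC2 and FOXL1, on both sides of the dashed median over genes.

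Neighbouring forkhead genes showed 3 different arrangements. FOXE3 and FOXD2 lie 20.0 kb apart on chromosome 1, and 1 H3K27me3 region at chr1:47392001-47458000 contained both. The authors' deposited table gave it 4695.83 reads in OTX2low and 3626.72 in OTX2high, with a log2 ratio of 0.37 (0.31 to 0.44). From 10 kb before FOXE3 to 10 kb after FOXD2, H3K27me3 peaks covered 26.5% in the list labelled OTX2low and 88.5% in the list labelled OTX2high, while H3K4me3 covered 6.10% in OTX2low and 8.02% in OTX2high.

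On chromosome 16, FOXF1 lies 51.4 kb from FOXC2, and FOXC2 lies 8.82 kb from FOXL1, a gene of gut mesenchyme. FOXC2 and FOXL1 shared a region, to which the authors' deposited table gave 1172.86 reads in OTX2low and 835.79 in OTX2high, and its log2 ratio of 0.49 (0.36 to 0.62) was the highest of the 9 by the condition names of the table. With the libraries assigned the other way it is the lowest, at -0.49 in the authors' deposited table. FOXF1 had a separate region, to which the authors' deposited table gave 859.75 reads in OTX2low and 666.58 in OTX2high, with a log2 ratio of 0.37. Its ratio of ChIP over IgG was 10.47 in OTX2low and 11 in OTX2high by the same table of the authors' deposited values, the 1 region of 9 that was not higher in OTX2low on that measure under the names in the table.

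On chromosome 6 the neighbours differed from each other. FOXQ1, FOXF2 and FOXC1 lie in that order with gaps of 74.8 kb and 214.3 kb. FOXC1 had both marks and a called H3K27me3 region. FOXF2 had H3K4me3 alone and lower H3K4me3 in OTX2low. FOXQ1 had both marks and no called region of either mark. H3K27me3 covered 0.94% of the stretch in the list labelled OTX2low and 3.00% in the list labelled OTX2high.

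**Figure D5:**
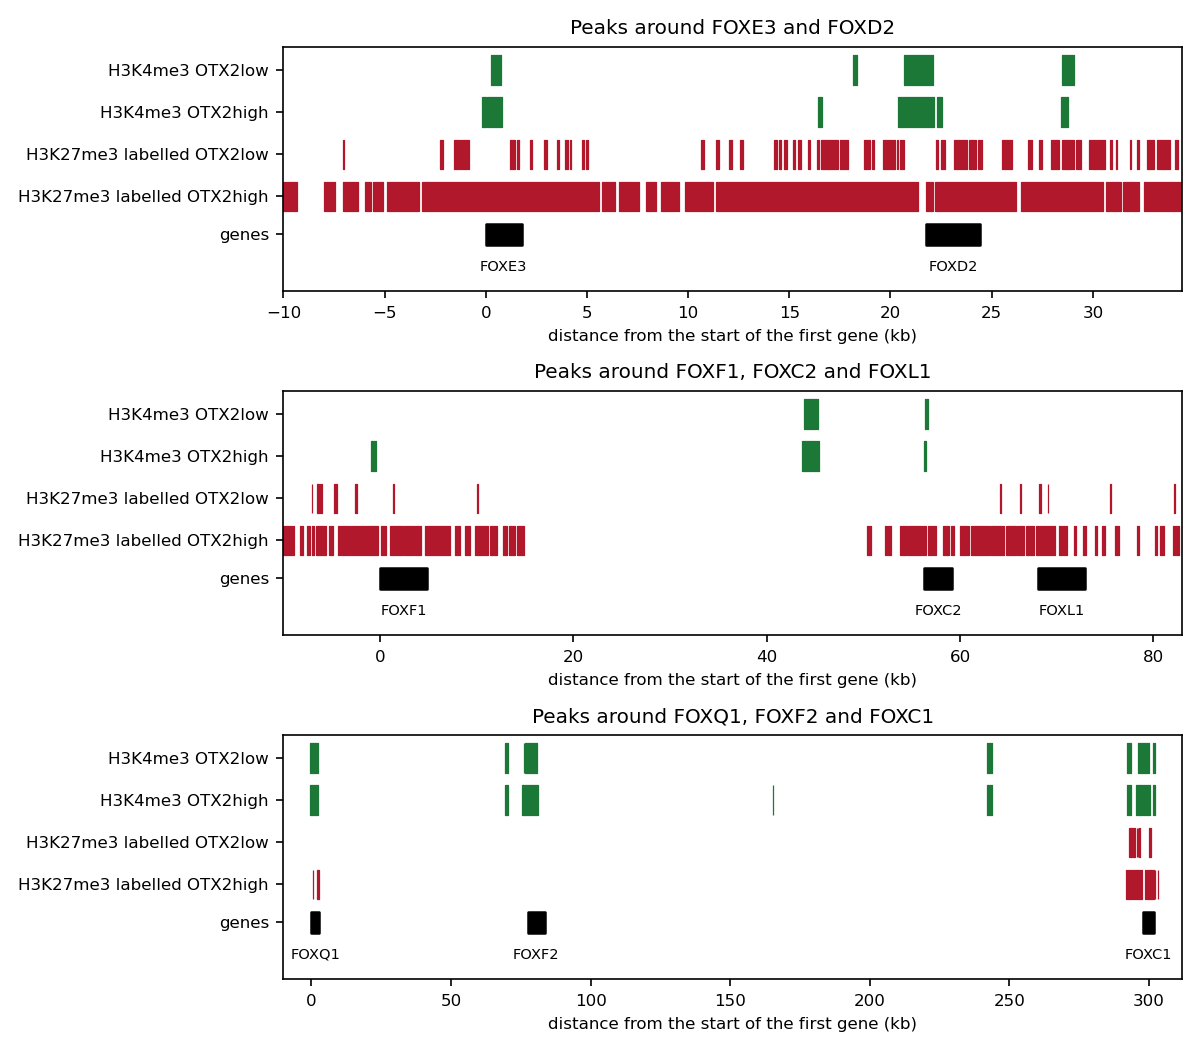
Peaks (coloured blocks) around the 3 groups of neighbouring forkhead genes (black blocks), by list, with H3K4me3 in green and H3K27me3 in red, against distance in kb from the first gene. H3K27me3 runs across FOXE3 and FOXD2 and the space between them, lies in 2 separate blocks at FOXF1 and at FOXC2 with FOXL1 in the list labelled OTX2high, where the list labelled OTX2low has no peak at FOXC2, and on the third map lies at FOXC1 and, in the list labelled OTX2high, at FOXQ1.

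Genes known to act with or under the members were counted in the same way. Of 15 known targets of FOXM1, 15 had H3K4me3 in both lists, and all 15 had regions that were lower in OTX2low, with a median log2 ratio of -0.60. The lowest ratios were at AURKB, a kinase of cell division, with 312.14 reads in OTX2low and 590.32 in OTX2high, CDC25B with 480.12 and 816.87, and PLK1 with 683.19 and 1146.33. Of 20 genes of the FOXO and AKT pathway, 20 had H3K4me3 in both lists, with regions all lower in OTX2low at 14, all higher at 1 and in both directions at 2. AKT2, one of the kinases that inhibit FOXO factors, held 115.33 reads in OTX2low and 222.57 in OTX2high. The insulin receptor gene INSR was the one that was higher, with 411.17 reads in OTX2low and 303.93 in OTX2high.

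Of 15 motile cilia genes under FOXJ1, which itself had no called region, 13 had H3K4me3 in both lists and 7 also had H3K27me3. Regions were lower in OTX2low at 5 and higher at 0. DNAH11, a dynein gene, held 80.23 reads in OTX2low and 146.78 in OTX2high. Of all genes, including those without H3K4me3, 42.1% were lower by the same rule. A region in a peak with at least 20 reads, of either direction, lay at 69.6% of genes with H3K4me3 alone and at 43.6% of genes with both marks. The counts of these lists, most of whose genes carried H3K4me3, are read against these shares only.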

How the data were processed

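H3K4me3 and H3K27me3 were profiled by ChIP-seq in 1 library per condition, and 2 IgG libraries whose title and label name opposite conditions were put in no group. The submitters' processing notes name GRCh38, the aligner Bowtie2 2.3.3.1 and the peak caller MACS2 2.1.1.20160309. Each of the 4 peak lists was called on 1 library at a q-value threshold of 0.05, per the file headers. The authors' lists give each peak its own pileup signal, its p- and q-value as -log10, and its fold enrichment, the ratio to local background. The authors' 2 differential tables came from diffReps 1.55.6 with a G-test of 1 library against 1 and a p-value limit of 0.0001, per the file headers. Windows measured 1000 bp, moved by 100 bp, for H3K4me3, and 10000 bp, moved by 1000 bp, for H3K27me3. The deposited columns hold normalized read signal, a ratio of ChIP over IgG and a log2 ratio of OTX2high over OTX2low.

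The log2 ratio was recomputed here as OTX2low over OTX2high. In the 4 deposited read columns 100% of values were whole multiples of 1 read within 0.05 reads. A G-test on these whole reads, added after seeing the data, called 21652 of 21652 H3K4me3 and 5373 of 5373 H3K27me3 regions at an adjusted p under 0.05, all of them already the authors' calls. Exact Clopper-Pearson intervals at 95% cover counting error only, and no molecular identifiers were used. Overlap took at least 1 bp with the RefSeq span (GRCh38.p14) plus 2 kb. Overlaps and intervals were tested on simulated data and against bedtools 2.31.1, with Python 3.11.15, pandas 2.3.3 and scipy 1.17.1. Per library values are given for each member with a called region that overlaps a peak of that mark and holds at least 20 normalized reads in either library, for the 5 members highest in H3K4me3 fold enrichment, the 5 with most H3K27me3-covered bases, those whose H3K4me3 peak is in 1 list, members within 500 kb of each other, and at most 3 genes per list and direction. Members and lists were chosen with earlier results of these data known. The list of other forkhead genes is not reported here. Alternatives were other spans, overlaps, q-values, read minimums and scalings.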

Additional observations from a re-analysis of the deposited data

How the results depend on the processing

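With 1 library per mark and condition, biological spread is unknown. No paired analysis was possible because each group holds 1 library. Of the values that answer a comparison, 81 kept within 1.5 times under the alternatives and 16 moved. Of the ratios at single members, 181 stayed within their counting interval, 23 moved and 14 reversed. The 181 include settings that could not change a ratio: regions in a peak, at least 20 reads, these 2 together, and the G-test. The 14 include the 11 H3K27me3 ratios turned by the reverse assignment. Members left without a region in a setting were not counted, as FOXP1, FOXD1, FOXP2, FOXA3 and FOXO4 for H3K4me3 at an adjusted p under 0.0001. At a -log10 q of at least 10, members with H3K27me3 fell to 2 in the list labelled OTX2low and 13 in the list labelled OTX2high, and members with both marks, and with overlapping peaks, to 10 each. An overlap of at least 200 bp left 9 in the list labelled OTX2low. Members with H3K4me3 regions all higher in OTX2low, 2 as reported, became 4 with 10 kb added to the span and 1 in each of 5 other settings: gene ends alone, regions in a peak, at least 20 reads, these 2 together (added after seeing the data) and an adjusted p under 0.0001. Members with both directions became 1 with gene ends alone and 0 at that adjusted p. Recentring used the median over genes with any called region, -0.53 for H3K4me3 and 0.33 for H3K27me3 in the authors' deposited table. It reversed H3K4me3 at FOXD1 (0.015) and FOXA3 (0.24), and H3K27me3 at FOXD3 (-0.011), leaving 1 member lower in OTX2low for H3K27me3. It moved the other ratios by over 1.5 times, H3K4me3 at FOXF2 to -0.03 and at FOXM1 to -0.05, and H3K27me3 at FOXC2 to 0.16 in the authors' deposited table. H3K4me3 at FOXA3 was -0.98 with no extension of the span, and at FOXN3 -2.13 at an adjusted p under 0.0001. With the H3K27me3 libraries assigned the other way, 0 members were higher and 11 lower, with log2 ratios in the authors' deposited table of -0.37 at FOXE3, FOXD2, FOXC1 and FOXF1, -0.32 at FOXD3, -0.38 at FOXL2, -0.34 at FOXD4 and FOXB1, -0.40 at FOXB2 and -0.49 at FOXC2 and FOXL1. The cause of the moves at a stricter q-value was not tested.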
